A study of Mus musculus with 17 samples.

Results

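Cells copy their genome with a set of proteins that are mostly made anew as they leave G1 and enter S phase. The 41 DNA replication and G1/S genes described here were taken by gene symbol. All 41 are among the 27240 symbols of the deposited table, and all passed the filter on low counts that left 20137 genes for testing. By role, 15 load or form the replicative helicase at origins, and 13 belong to the polymerases, the sliding clamp or strand joining. Another 5 supply nucleotides, and 4 handle chromatin and histone messages at the fork. The last 4 are control genes, of which Ccne1, Ccne2 and E2f1 act at entry into S phase and Chek1 when replication stalls.

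In G1 the origin recognition complex, CDC6 and CDT1 load the MCM helicase onto DNA, and CDC45 and the GINS complex then switch it on. Primase and the DNA polymerases copy the strands behind the helicase, tethered by the PCNA clamp that the RFC complex loads. Many of these genes are targets of E2F transcription factors, which the retinoblastoma protein holds back until cyclin-dependent kinases release them. Resting CD8 T cells keep most of these genes low, and T cells that divide after antigen contact raise them.

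The study sorted CD8 T cells from mouse lung tumours and measured RNA in bulk, in 17 libraries. WT and KO name the genotype. KO mice lacked PD-L1, the ligand of the T cell receptor PD-1, in endothelial cells, and their T cells and tumour cells were not the targeted population. The driver of the endothelial deletion, the tumour model and the age of the mice are not given in the sources at hand. Core-enriched cells came from macroscopic nodules and rim-enriched cells from nodules in the parenchyma. The groups held 5 libraries of WT core, 6 of KO core, 2 of WT rim and 4 of KO rim, and 1 of the WT core libraries carries the label pool. F322, F86 and O each name a KO core and a KO rim library, whereas no WT identifier occurs at both sites. Nothing in the labels ties libraries to separate animals, so p-values measure differences against the spread between libraries, which may in part be technical.

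Total counts ran from 21767045 to 32566456 per library, and the 41 genes together took 0.238% to 0.547% of them. No column duplicated another. Values are CPM, counts relative to library size after TMM scaling. A gene was called when the adjusted p of edgeR's quasi-likelihood test, over all 20137 genes, was under 0.05. The CD8 identity genes were abundant in every group, with Cd8a at 1402 ± 459 CPM (SD, n = 5) in WT core, 1366 ± 233 (n = 6) in KO core, 813 ± 77.2 (n = 2) in WT rim and 1227 ± 111 (n = 4) in KO rim. Over all 12 of these genes, the mean log2 CPM was 9.13 in WT core, 9.23 in KO core, 9.17 in WT rim and 9.35 in KO rim. Reads from X-inactivation and Y-linked genes marked F322 and O as male at both sites and the WT core pool as mixed, with the other libraries female. In bulk RNA, fewer dividing cells and less replication RNA in each cell cannot be told apart.

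Some libraries stood apart across the members. KO rim F322 was the lowest of the 4 KO rim libraries for 32 of the 41 genes, KO core F319 the lowest of 6 for 33, and WT core H876 the lowest of 5 for 26. KO core F86 was the highest of its group for 26 genes. The share of counts taken by the members was 0.243% in WT rim H874 and 0.238% in H877. It was 0.295% in KO rim F322 and between 0.361% and 0.373% in the other 3 KO rim libraries. Core libraries reached from 0.313% in KO core F319 to 0.547% in KO core F86.

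**Figure D1:**
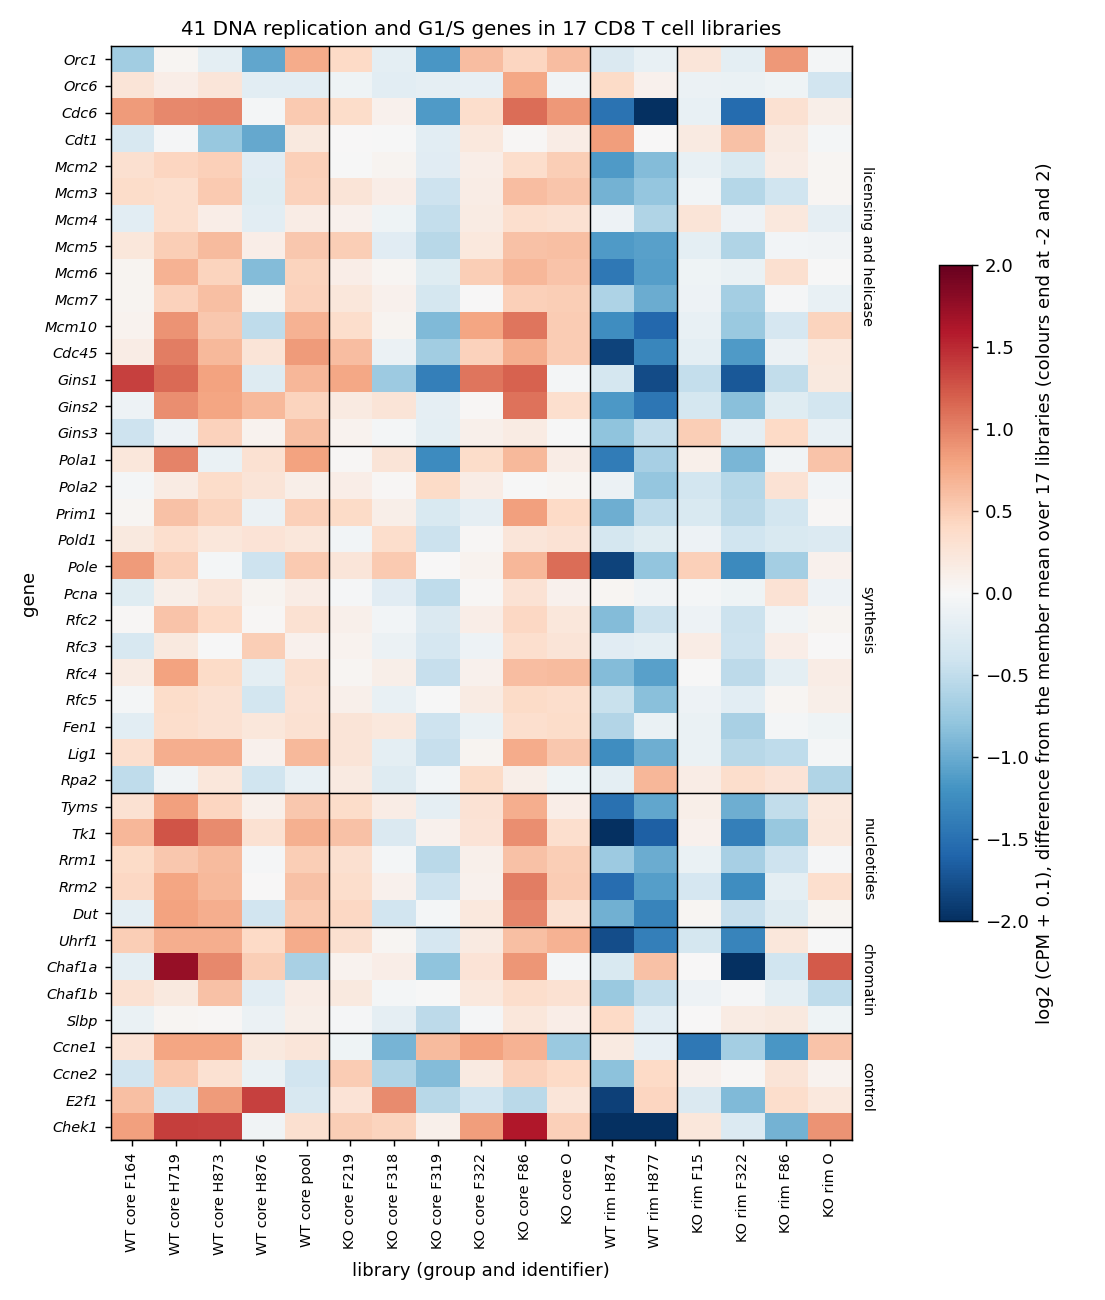
Each row is 1 of the 41 genes and each column 1 library, with colour giving log2 (CPM + 0.1) minus the gene's mean over the 17 libraries. Colours end at -2 and 2. The 2 WT rim columns are blue for most helicase and nucleotide genes, while Orc6, Cdt1, Pcna, Rpa2 and Slbp show no such drop.

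The largest contrast lay between WT core and WT rim. Replication transcripts were higher in WT core for 21 of the 41 genes, and none was called lower. Over all 20137 genes, 2.1% were called higher and 1.76% lower. The log2 fold change (core over rim) was positive for 37 members, with a median of 1.14 against 0.033 over all genes tested, and it was above 2-fold for 22. For 29 members every WT core library lay above both WT rim libraries, an order that 10.1% of all genes showed. The calls rest on only 2 rim libraries, and leaving out either leaves 1 in that group. The member median was 1.09 without H874 and 1.21 without H877.

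Helicase genes made up 9 of the 21 calls. Cdc6, the loading factor of the helicase (chr11:98907801-98923940), measured 49.3, 48.4, 45.1, 36 and 24.2 CPM in the 5 WT core libraries. In WT rim it measured 8.92 CPM in H874 and 5.44 in H877. Both rim values lay below the lowest core value, or a log2 fold change of 2.50 (SE 0.576, edgeR's adjusted p = 0.0256). Cdc45, which joins the helicase when origins fire (chr16:18780447-18811987), measured 48.2, 42.9, 37.2, 28.6 and 26.4 CPM in WT core against 6.54 in H874 and 9.52 in H877 (log2 fold change 2.19, SE 0.432, edgeR's adjusted p = 0.0134).

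The helicase ring itself moved less in ratio but from higher levels. Mcm2 (chr6:88883474-88898780) measured 243, 242, 234, 217 and 148 CPM in WT core, and 79.1 CPM in WT rim H874 and 94.8 CPM in WT rim H877. Its groups did not overlap, at a log2 fold change of 1.32 (SE 0.219, edgeR's adjusted p = 0.00623). Mcm6 (chr1:128331590-128359664) measured 697, 588, 586, 447 and 238 CPM in WT core and 161 and 202 CPM in WT rim, where the lowest core value, from H876, was close to the rim. Mcm3 (chr1:20802968-20820312) measured 302, 289, 271, 265 and 178 CPM in core and 109 and 122 CPM in rim. Mcm3, Mcm5, Mcm6 and Mcm7 were called with log2 fold changes of 1.17, 1.53, 1.49 and 1.14.

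Mcm4, a subunit of the same ring, was not called. Its mean was 293 ± 49.1 CPM (SD, n = 5) in WT core and 225 ± 55.5 CPM (n = 2) in WT rim, and its groups overlapped (log2 fold change 0.38, SE 0.218, edgeR's adjusted p = 0.385). The ratio of Mcm4 to the geometric mean of Mcm2, Mcm3, Mcm5, Mcm6 and Mcm7 within a library ran from 1.0 to 1.35 in WT core and from 1.12 to 1.30 in KO core. That ratio was 2.59 and 1.71 in WT rim H874 and H877. In KO rim it ran from 1.20 in O over 1.55 in F86 and 1.71 in F322 to 1.74 in F15. Mcm4 was chosen for this ratio after its values were seen, and the ratio was not tested.

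Mcm10, which links the helicase to polymerase alpha, and Gins2, a GINS subunit, were also called. Gins2 (chr8:120578633-120589304) measured 20.7, 18.9, 17.1, 14.8 and 10.1 CPM in WT core and 4.81 and 3.89 CPM in WT rim (log2 fold change 1.90, SE 0.378, edgeR's adjusted p = 0.0138). Exons of Gse1 on the other strand cover 67.3% of the Gins2 exon bases, so its counts are uncertain if strand was not used. The other helicase genes were not called. Among them Gins1 and Gins3 had log2 fold changes of 1.78 and 0.81, Orc1 0.13 and Orc6 -0.19.

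Cdt1, the partner of CDC6 in loading, pointed the other way. This gene (chr8:122568015-122573554) measured 47.5, 40.7, 33.3, 24.5 and 20.2 CPM in WT core against 73.8 in H874 and 41.5 in H877. The groups overlapped through the pool library, at a log2 fold change of -0.79 (SE 0.278, unadjusted p = 0.0113, edgeR's adjusted p = 0.131). The lowest member change in this comparison was that of Cdt1.

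Promoter sequences are shown for 4 members that carry an E2F-type motif, since E2F factors are known regulators of this group. RefSeq promoters of GRCm38.p6, from 250 bases before to 50 bases after each start, were found for 35 of the 41 genes. Ccne2, Rfc2, Mcm4, Gins2, Pole and Gins1 were not matched. The letters TTTCGCGC and TTTGGCGC were searched on both strands, where the 2 words overlap in TTTCGCGCCAAA and its reverse complement. Some genes have several promoter entries, 40 for the 35 members, and a gene was counted when any entry held a word. At least 1 word was found for 10 of 35 members (28.6%) and for 251 of 27025 genes in all (0.929%). By word, TTTCGCGC was found for 20% of members and 0.374% of all genes, and TTTGGCGC for 14.3% and 0.585%. A match was present in 6 of 19 members called in WT core against rim (31.6%) and in 4 of 16 not called (25.0%). The called genes with a match were Lig1, Mcm3, Mcm5, Mcm6, Mcm7 and Uhrf1, and the others Cdt1, Orc1, Pola1 and Rfc3. The sequences below are given 5′ to 3′ along the gene's strand, with the motif in capitals. A comparison with GENCODE transcripts found this orientation for Uhrf1 and Pola1. The Mcm5 and Mcm6 entries matched no transcript there, so their orientation rests on the promoter source alone. Mcm5 (chr8:75109326-75109397, plus strand) and Mcm6 (chr1:128359715-128359845, minus strand) each hold both words in an overlapping run.
Mcm5: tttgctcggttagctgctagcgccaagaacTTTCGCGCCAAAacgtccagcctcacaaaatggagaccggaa
Mcm6: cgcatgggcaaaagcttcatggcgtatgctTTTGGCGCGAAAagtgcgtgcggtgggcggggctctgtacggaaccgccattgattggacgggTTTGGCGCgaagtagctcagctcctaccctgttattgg
Uhrf1: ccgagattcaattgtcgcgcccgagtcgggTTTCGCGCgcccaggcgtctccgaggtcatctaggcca
Pola1: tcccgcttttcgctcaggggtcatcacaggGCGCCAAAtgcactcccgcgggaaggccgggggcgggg

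The Uhrf1 window lies at chr17:56304098-56304165 on the plus strand, ahead of a start inside the gene, and the Pola1 window at chrX:93632256-93632323 on the minus strand, where the word reads on the opposite strand. Uhrf1 was among the called genes with the largest changes and Pola1 was not called. A match of letters is a description of the sequence only, and no binding was measured.

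The nucleotide supply genes were the only role whose members were all called, 5 of 5. Tk1, the thymidine kinase of the salvage route (chr11:117815526-117826092), measured 52.9, 42.8, 36.4, 35.2 and 27.4 CPM in WT core and 4.20 and 7.08 CPM in WT rim. Every core library lay well above both rim libraries, and the log2 fold change was 2.79 (SE 0.468, edgeR's adjusted p = 0.00662). Tyms, which makes thymidylate (chr5:30058202-30073617), measured 88.5, 72.4, 67.2, 61.5 and 53.7 CPM in core and 17.6 and 24.2 CPM in rim (log2 fold change 1.71, SE 0.321, edgeR's adjusted p = 0.0104). Rrm2, the S-phase subunit of ribonucleotide reductase (chr12:24708241-24714146), measured 265, 241, 229, 204 and 154 CPM in core and 53.1 and 71.2 CPM in rim (1.81, SE 0.396, edgeR's adjusted p = 0.0206). Neither gene overlapped between the groups. Rrm1, the large subunit, and Dut, which clears dUTP, rose by 1.27 and 1.51 on the log2 scale.

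Among the 13 polymerase and clamp genes, 4 were called. Lig1, the ligase that joins Okazaki fragments (chr7:13277283-13311433), measured 174, 174, 163.99, 132 and 111 CPM in WT core and 44.2 and 53.3 CPM in WT rim, with no overlap (log2 fold change 1.63, SE 0.299, edgeR's adjusted p = 0.00907). The other 3 were clamp loader subunits, Rfc4 at 1.31, Rfc2 at 0.91 and Rfc5 at 0.76, while Rfc3 had 0.33 and was not called. The polymerase subunits Pola1, Pole, Prim1, Pola2 and Pold1 had log2 fold changes between 0.55 and 1.57 with no overlap between groups, and none was called, with Prim1 the nearest at an adjusted p of 0.0578. Pold1, the catalytic subunit of polymerase delta (chr7:44532746-44548849), measured 139, 134, 129.6, 129 and 126 CPM in core and 86.1 and 93.4 CPM in rim. Fen1 (0.56) and Rpa2 (-0.45) overlapped between the groups, and 84.2% of the Fen1 exon bases are covered by antisense genes.

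Pcna, the clamp, did not separate the sites. It measured 188, 177, 173, 166 and 134 CPM in WT core and 163 and 152 CPM in WT rim, so that both rim values fell inside the core range. The log2 fold change was 0.088 (SE 0.181, edgeR's adjusted p = 0.865). Within libraries the ratio of Pcna (chr2:132249162-132253314) to the geometric mean of the same 5 Mcm genes was 1.59 and 1.40 in WT rim H874 and H877. It ran from 0.549 to 0.915 in WT core, from 0.548 to 0.672 in KO core and from 0.713 to 0.975 in KO rim. The WT rim libraries thus had the highest ratios of the 17, a description without a test.

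Of the chromatin genes, Uhrf1 and Chaf1b were called. Uhrf1 brings the maintenance DNA methyltransferase to newly copied DNA (chr17:56303321-56323486). It measured 144, 142, 141, 120.3 and 113 CPM in WT core and 25.0 and 33.2 CPM in WT rim (log2 fold change 2.18, SE 0.358, edgeR's adjusted p = 0.00563). Its WT core values were close together and far above the rim. Chaf1b, a subunit of the histone chaperone CAF-1, had a log2 fold change of 0.84 (SE 0.202, edgeR's adjusted p = 0.031). Slbp, which binds histone messages, had -0.13, and Chaf1a, the lowest member per exon length, had 0.52 with an SE of 0.993. Exons of Ubxn6 cover 52.5% of the Chaf1a exon bases on the other strand.

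Among the control genes Chek1 was called and the cyclins and E2f1 were not. Chek1, the kinase that restrains the cycle when replication stalls (chr9:36708482-36727065), measured 23.6, 23.3, 15.9, 11.3 and 8.61 CPM in WT core. In WT rim it measured 0.309 CPM in H874, from 7 counts, and 0.891 CPM in H877, from 19 counts. Every core library lay above both, at a log2 fold change of 4.78 (SE 0.719, edgeR's adjusted p = 0.00409), the largest of the 41.

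The genes of cyclin E, the partner of CDK2 at the start of S phase, were not called between the WT sites. Ccne1 (chr7:38097984-38107534) measured 7.01, 6.94, 4.84, 4.74 and 4.61 CPM in WT core and 4.55 and 3.56 CPM in WT rim, groups that did not overlap by a small margin (log2 fold change 0.47, SE 0.600, edgeR's adjusted p = 0.744). Its sign turned to -0.11 when the macrophage marker level was a covariate. Ccne2 (chr4:11191351-11204779) measured 14.7, 12.6, 9.28, 7.79 and 7.78 CPM in core against 5.74 in H874 and 13.5 in H877, and its rim libraries spanned nearly the whole core range (0.12, SE 0.414, edgeR's adjusted p = 0.933). Without H874 the value was -0.37. E2f1 (chr2:154559407-154569892) was as variable, at 18.8, 13.1, 11, 5.74 and 5.46 CPM in core and 1.90 and 9.80 CPM in rim (0.89, SE 0.641, edgeR's adjusted p = 0.498).

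**Figure D2:**
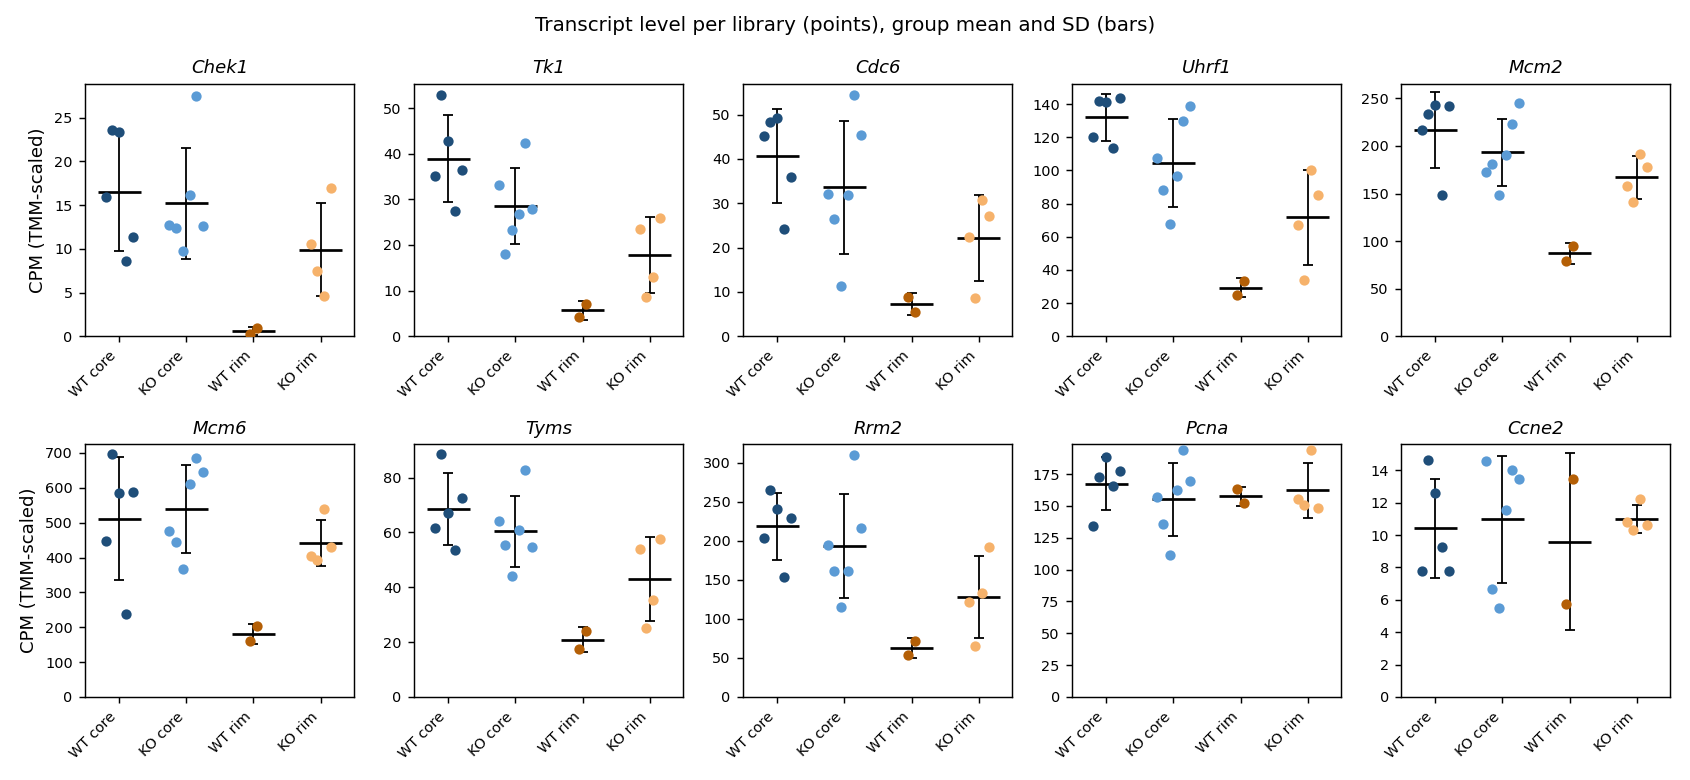
Points are TMM-scaled CPM of single libraries for 10 members, with horizontal bars at the group mean and error bars of 1 SD (n of 5, 6, 2 and 4 from left to right). Chek1 is near 0 in both WT rim libraries and between 4.66 and 17 CPM in KO rim, while Pcna and Ccne2 overlap in all groups.

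Other genes of the pathway, taken from lists that hold none of the 41, gave a mixed count. Of 51 further replication genes, 12 were called higher and 1 lower in WT core than in WT rim (median log2 fold change 0.53). Among them were Shmt1, a serine hydroxymethyltransferase, at 2.52 (edgeR's adjusted p = 0.00413), the clamp-binding Pclaf at 2.51 (0.0088) and the histone chaperone Asf1b at 1.55 (0.0177). The 1 called lower was Tk2, the mitochondrial thymidine kinase, at -1.02. Of 37 genes of the CDK, retinoblastoma and E2F control network, Tfdp1 (1.46), Cdk4 (0.64) and Cdkn3 (2.28) were called higher and Tob1 (-1.32) lower, with a median of 0.62. Of 36 genes of G2 and mitosis, 24 were called higher, with a median of 2.26, among them Ccnb2 (2.73), Cdca8 (2.44), Kif2c (3.49) and Cdc20 (2.15).

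Mitosis genes thus differed between the WT sites by a larger median than the members did. The mean log2 CPM over the 41 members was 5.91 ± 0.237 (SD, n = 5) in WT core and 4.80 ± 0.113 (n = 2) in WT rim. Over the 36 mitosis genes it was 5.94 ± 0.415 in WT core and 3.78 ± 0.0253 in WT rim. The member mean minus the mitosis mean was 0.95 in H874 and 1.08 in H877. That difference was 0.86 in KO rim F322, 0.57 in F86, 0.35 in F15 and 0.024 in O, and it ran from -0.33 to 0.21 in WT core and from -0.19 to 0.44 in KO core. Libraries with low replication transcripts in rim therefore had mitosis transcripts that were lower still, and these differences were not tested.

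**Figure D3:**
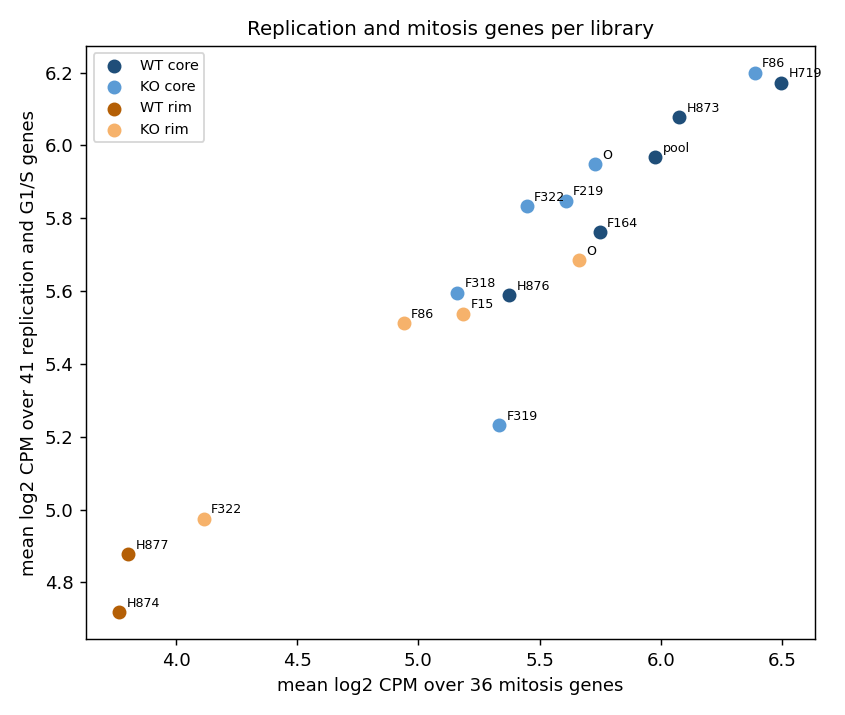
Each point is 1 of the 17 libraries, with the mean log2 CPM over 36 mitosis genes on the x axis and over the 41 members on the y axis. WT rim H874 and H877 sit at the lower left with KO rim F322 next to them, and KO core F86 and WT core H719 at the upper right.

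Marker lists of other cells were compared between the WT sites in the same fit. Of 15 macrophage and monocyte markers, 14 had positive log2 fold changes (core over rim) and 2, C1qb and C1qc, were called, with a median of 2.27. Their summed level was 2247 to 6318 CPM in WT core, 1305 and 2462 CPM in WT rim, 2147 to 6184 CPM in KO core and 870.3 to 8402 CPM in KO rim, and none of the 15 was at 0 in a group. Neutrophil, epithelial and fibroblast markers had medians of 2.15, 2.0 and 1.69, where Ly6g, Ngp, Ltf and Nkx2-1 were at 0 in WT rim. CD4 and regulatory T cell markers had a median of 1.24, with Il2ra called higher. B and plasma cell markers pointed the other way (median -0.87, 8 of 10 negative), and dendritic, endothelial and red blood cell markers had medians of 0.48, 0.12 and -0.022. With the macrophage level as a covariate edgeR called 3 of the 41 members and 52 of all 20137 genes, and the member median was 1.12. That covariate, the mean log2 CPM over the 15 markers, was 5.37 to 7.02 in WT core and 4.36 and 4.19 in WT rim. With a covariate over all other cell types edgeR called 19 members. The count over all genes in that fit is not given here, so the 19 do not show how unusual the members are. The 12 CD8 identity genes had a median of -0.019 and went both ways, 6 positive and 6 negative, from -0.88 to 0.79. None of them was called. By edgeR's test, 4 of the 12 had an unadjusted p under 0.05, against 3617 of all 20137 genes.

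The same sites were compared in KO mice. None of the 41 members was called between KO core and KO rim by edgeR, DESeq2 or limma voom, as none of all genes was by edgeR (0.0%). At an unadjusted p under 0.05, 13 members passed, all higher in core, against 7.95% of all genes in either direction. The log2 fold change (core over rim) was positive for 34 of 41, with a median of 0.36 against 0.029 over all genes, and ran from -0.21 for Cdt1 to 0.91 for Gins1. Only Gins2 had every KO core library above every KO rim library, an order that 0.8% of all genes showed.

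The 3 members with the smallest p in this comparison were Gins2, Pold1 and Mcm3. Gins2 had a lowest, median and highest value of 9.50, 12.6 and 23.0 CPM in KO core, against 9.19, 8.45, 8.33 and 6.01 CPM in KO rim (log2 fold change 0.78, SE 0.267, edgeR's adjusted p = 0.62). Pold1 ran from 82.3 over 121 to 141 CPM in KO core, against 103, 90.9, 88.8 and 83.4 CPM in KO rim, with overlap through KO core F319 (0.36, SE 0.127, edgeR's adjusted p = 0.62). Mcm3 ran from 158 over 242 to 321.8 CPM in KO core, against 216, 202, 159 and 142 CPM in KO rim (0.48, SE 0.190, edgeR's adjusted p = 0.62). Each had its highest values in core and its lowest in a rim or F319 library. Of the mitosis genes, the median was 0.60.

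**Figure D4:**
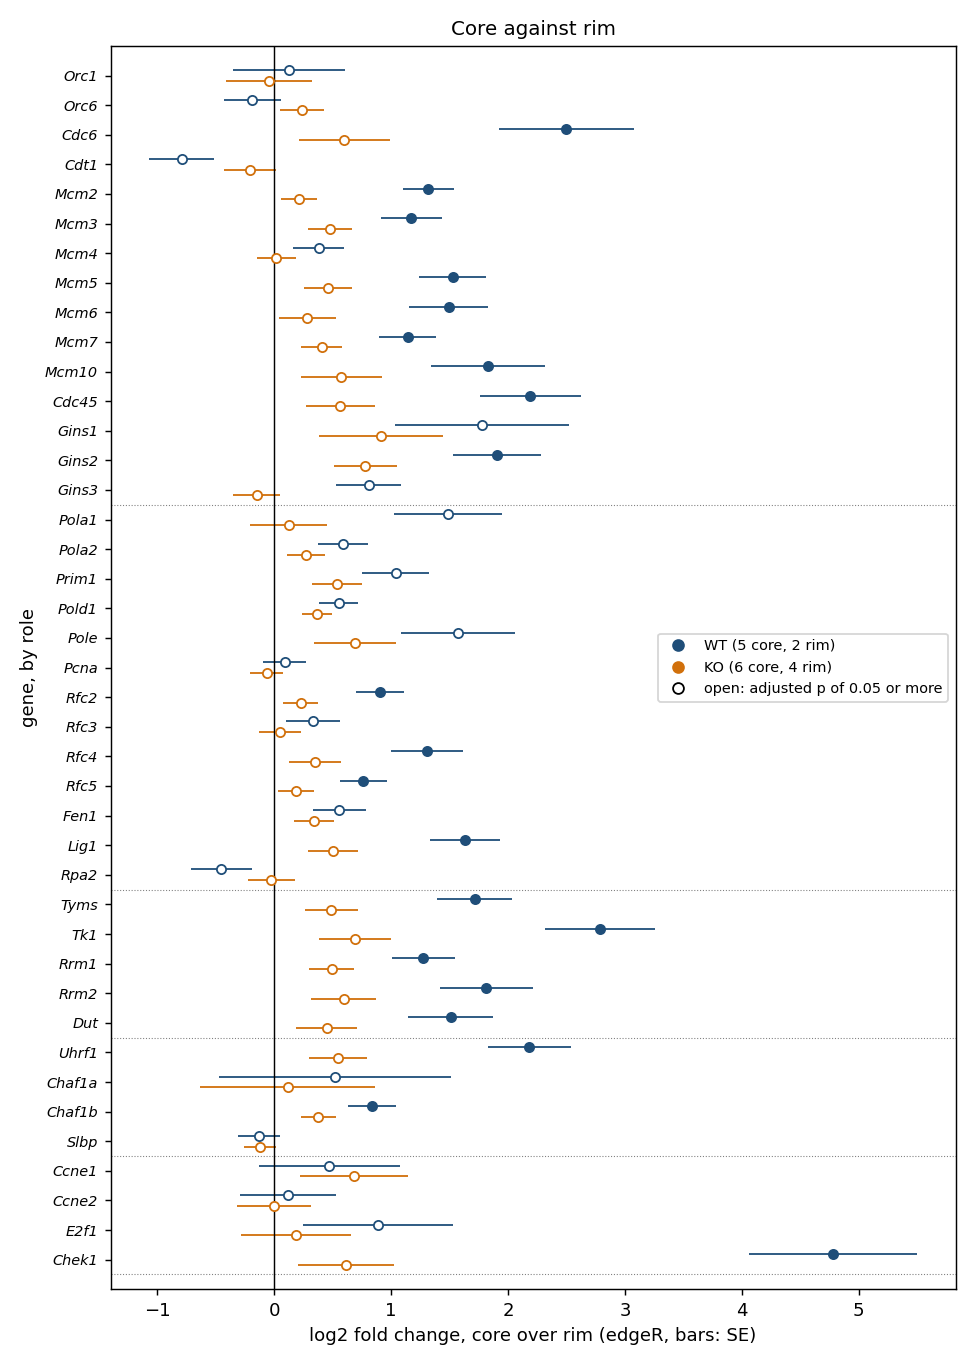
Log2 fold changes of core over rim for the 41 members in role order, in WT (blue) and KO (orange), with bars of 1 SE and filled points for adjusted p under 0.05. The 21 filled points are all in WT, and the KO values run from -0.21 to 0.91.

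The rim comparison of KO with WT asked how loss of endothelial PD-L1 related to the T cells of parenchymal nodules. It shares both WT rim libraries with the WT comparison of sites above, so the 2 sets of values are not independent. No member was called by edgeR, as none of all genes was (0.0%), and limma voom called 0. DESeq2 called 5 of the 41, all higher in KO, and 269 of all 20137 genes. At an unadjusted p under 0.05, 22 members passed, all higher in KO rim, against 7.35% of all genes in either direction. The log2 fold change (KO over WT) was positive for 35 of 41, with a median of 0.58 against 0.011 over all genes. For 17 members all 4 KO rim libraries lay above both WT rim libraries, an order that 6.86% of all genes showed. For Orc6 alone all lay below, the reverse order, which 6.81% of all genes showed.

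Chek1 had the largest difference. It measured 17, 10.6, 7.49 and 4.66 CPM in KO rim O, F15, F322 and F86 against 0.309 and 0.891 CPM in WT rim. The lowest KO value exceeded the higher WT value, at a log2 fold change of 4.04 (SE 0.699, edgeR's adjusted p = 0.0641). That adjusted p was 0.0498 without WT core H719, 0.0496 without WT core H876 and 0.0385 without KO rim F322, and it ran up to 0.324 over the other libraries left out. Over the 8 other tests and settings of edgeR, DESeq2 and limma voom, the adjusted p of Chek1 ran from 9.6e-08 (DESeq2's test) to 0.624. Only DESeq2 called the gene among them. Tk1 measured 25.8, 23.5, 13 and 8.51 CPM in KO rim against 7.08 and 4.20 CPM, or a log2 fold change of 1.65 (SE 0.446, edgeR's adjusted p = 0.322).

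Of the 15 helicase genes, 8 had all KO rim libraries above both WT rim libraries, 13 had a positive log2 fold change and none was called. Orc6 (-0.42) and Cdt1 (-0.23) were negative. Mcm2 measured 192, 178, 157 and 141 CPM in KO rim and 94.8 and 79.1 CPM in WT rim, with every KO value above the WT values (log2 fold change 0.94, SE 0.220, edgeR's adjusted p = 0.244). Mcm6 measured 538, 431, 405 and 394 CPM against 202 and 161 CPM (1.28, SE 0.340, edgeR's adjusted p = 0.315). Cdc45 measured 27.5, 21.8, 20.7 and 10.7 CPM against 9.52 and 6.54 CPM (1.33, SE 0.419, edgeR's adjusted p = 0.449). These 3 genes did not overlap between the genotypes in rim. For Cdc6 the KO rim values of 30.7, 27.0 and 22.4 CPM were followed by 8.55 CPM in F322, which fell below WT rim H874.

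For Tyms, Rrm2 and Uhrf1 the lowest KO rim library was near WT rim or within it. Tyms measured 57.7, 54.0, 35.5 and 25.3 CPM in KO rim and 24.2 and 17.6 CPM in WT rim, or a log2 fold change of 1.04 (SE 0.316, edgeR's adjusted p = 0.411) with the lowest KO library, F322, just above WT. Rrm2 measured 193, 133, 122 and 64.7 CPM against 71.2 and 53.1 CPM, so that F322 lay between the WT rim libraries (1.04, SE 0.387, edgeR's adjusted p = 0.563). Uhrf1 measured 100.2, 85.1, 67.0 and 34.1 CPM against 33.2 and 25.0 CPM (1.30, SE 0.346, edgeR's adjusted p = 0.315). That lowest library was F322 for all 3 genes. Lig1 measured 101.4, 95.4, 73.9 and 71.2 CPM against 53.3 and 44.2 CPM (0.81, SE 0.292, edgeR's adjusted p = 0.54).

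Pcna and the control genes other than Chek1 showed no separation in rim. Pcna measured 194, 156, 151 and 148 CPM in KO rim and 163 and 152 CPM in WT rim (log2 fold change 0.042, SE 0.187, edgeR's adjusted p = 0.987), and without KO rim F86 the value was -0.051. Ccne1 measured 6.01, 2.45, 1.72 and 1.42 CPM in KO rim against 4.55 and 3.56 CPM, the lowest member change in rim at -0.48 (SE 0.598). Ccne2 measured 12.2, 10.8, 10.6 and 10.3 CPM against 13.5 and 5.74 CPM, and E2f1 9.19, 8.33, 5.88 and 3.85 CPM against 9.80 and 1.90 CPM. In both genes the WT rim pair enclosed all KO rim values. Their log2 fold changes of 0.20 and 0.22 turned to -0.29 and -0.53 without H874. Pold1, at 89.8 ± 5.16 CPM (SD, n = 2) in WT rim and 91.4 ± 8.09 CPM (n = 4) in KO rim, differed by less than its SD.

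The further lists had smaller or larger medians in rim (KO over WT), 0.28 for the 51 replication genes, 0.19 for the 37 control genes and 1.37 for the 36 mitosis genes, with none called. No marker of another cell type was called in rim. Of the macrophage markers, 14 of 15 were positive, with a median of 1.68. The macrophage sum in KO rim was 8402 CPM in O, 4602 CPM in F15, 1316 CPM in F322 and 870.3 CPM in F86, while the mean log2 CPM over the 41 members was 5.69, 5.54, 4.97 and 5.51 in the same order. Neutrophil (6 of 6 tested), epithelial (10 of 11) and fibroblast markers (6 of 8) were also mostly positive, at log2 fold changes of 0.11 to 8.77 for neutrophil markers and medians of 1.73 and 2.42 for the other two. Dendritic (11 of 11) and B and plasma cell markers (9 of 10) were mostly negative, with medians of -0.72 and -0.55. CD4 and regulatory T cell markers had a median of 0.30, endothelial markers 0.014 and red blood cell markers 0.0080. The part of these cells in the result was not tested beyond the covariates. With the macrophage level as a covariate the member median in rim was 0.63 and no member was called. Among female libraries alone, which left F15 and F86 in KO rim, the median was 0.64.

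In core the 2 genotypes overlapped for every member, as they did for most genes. Over all genes tested, every KO core library lay above every WT core library for 0.223%, and below for 0.174%. No member was called by edgeR (0.0% of all genes), DESeq2 or limma voom, and no member had an unadjusted p under 0.05, against 6.18% of all genes. The log2 fold change (KO over WT) was negative for 31 of 41, with a median of -0.12 against -0.010 over all genes, and ran from -0.57 for Chaf1a to 0.35 for Cdt1. For 40 of 41 members it was within 0.5 on the log2 scale. Cdt1, with the smallest p, ran from 35.6 over 42.0 to 47.8 CPM in KO core (0.35, SE 0.209, edgeR's adjusted p = 0.909). Lig1 ran from 75.6 over 117 to 175 CPM in KO core (-0.32, SE 0.196, edgeR's adjusted p = 0.928). Tk1 ran from 18.1 over 27.3 to 42.3 CPM (-0.44, SE 0.284, edgeR's adjusted p = 0.941). For all 3 the KO core values overlapped those of WT core given above.

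The other members described per library also overlapped in core. In KO core the lowest, median and highest values were 9.73, 12.7 and 27.5 CPM for Chek1, 11.3, 32 and 54.5 CPM for Cdc6, and 14.6, 33.3 and 39.6 CPM for Cdc45. They were 148, 186 and 245 CPM for Mcm2, 367, 543 and 685 CPM for Mcm6, 44.1, 58.2 and 82.7 CPM for Tyms, and 115, 178 and 311 CPM for Rrm2. Uhrf1 ran from 67.4 over 102 to 139 CPM and Pcna from 111 over 159.9 to 194 CPM. For each of these genes F319 gave the lowest value. Low-level control genes ran from 2.04 over 5.01 to 7.06 CPM (Ccne1), from 5.51 over 12.5 to 14.6 CPM (Ccne2) and from 4.87 over 7.02 to 14.0 CPM (E2f1).

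**Figure D5:**
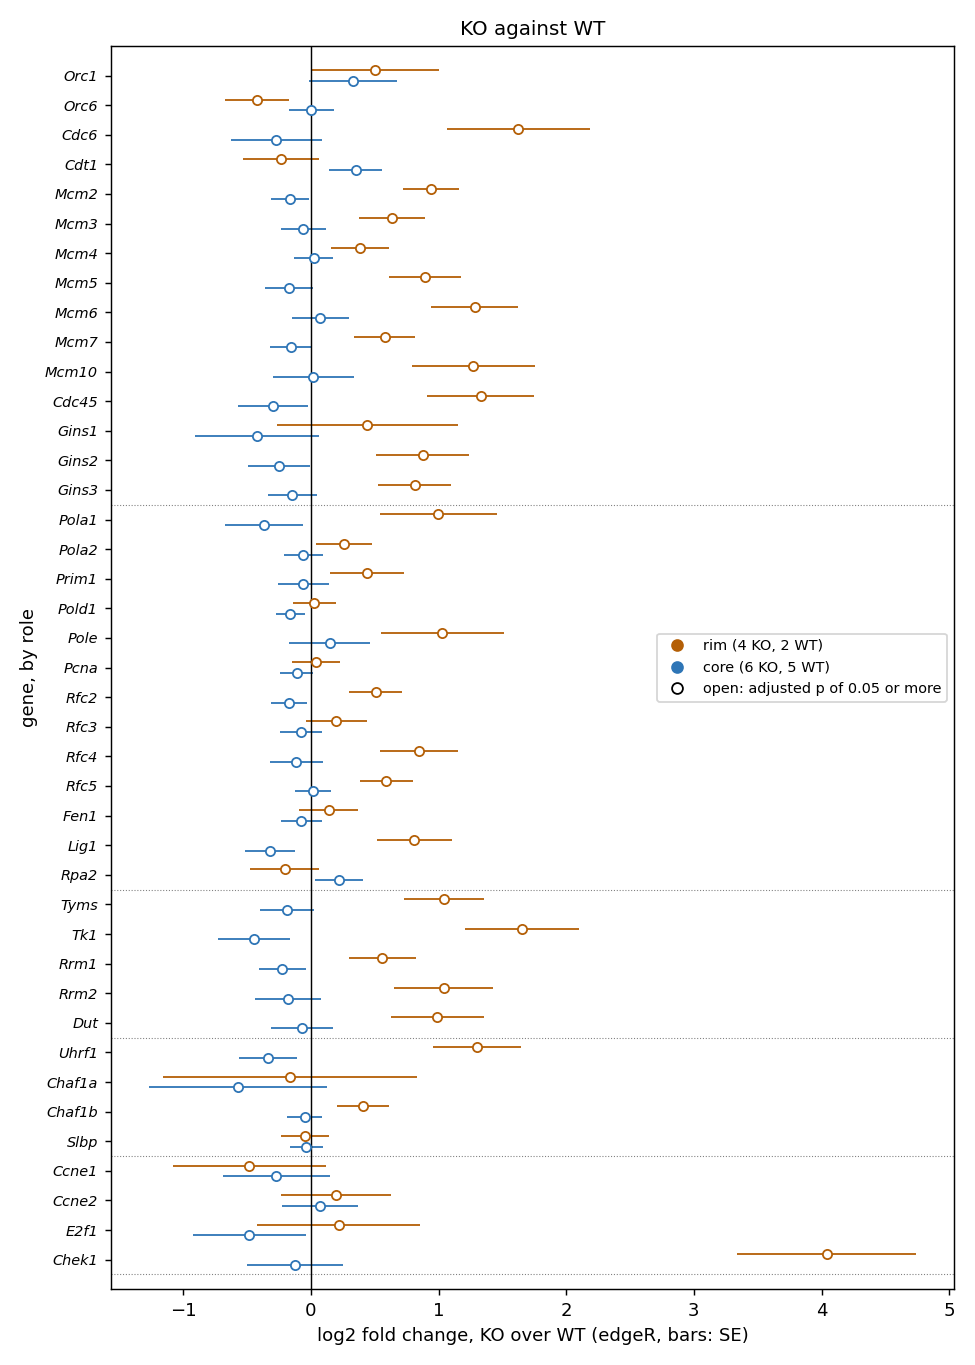
Log2 fold changes of KO over WT for the 41 members in role order, in rim (brown) and in core (blue), with bars of 1 SE. All points are open because no adjusted p was under 0.05, and 35 rim values are positive while 31 core values are negative.

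Whether the genotype difference itself depended on the site was tested by the interaction, the genotype effect in rim minus that in core. No member was called by edgeR or limma voom, and no gene of all was by edgeR (0.0%). At an unadjusted p under 0.05, 22 of the 41 passed, all positive, against 7.68% of all genes in either direction. DESeq2 called 4 members and 160 of all 20137 genes. The median was 0.73 against 0.012 over all genes, with 36 positive. The smallest p-values belonged to Chek1 (4.17, SE 0.771, edgeR's adjusted p = 0.139), Mcm2 (1.11, SE 0.263, edgeR's adjusted p = 0.294) and Tk1 (2.10, SE 0.525, edgeR's adjusted p = 0.328). A difference of the genotype effect between sites was therefore called for single members by DESeq2 only, and not by edgeR with all libraries or limma voom.

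By group mean, WT rim was the lowest of the 4 groups for 34 of the 41 genes, and for 30 the order ran from WT rim over KO rim to both core groups. WT core was the highest for 29. The 7 exceptions were Ccne1, Chaf1a and Orc6, lowest in KO rim, Cdt1 and Rpa2, lowest in WT core, and Pcna and Slbp, lowest in KO core. These orders were counted for the members only and not over all 20137 genes. The WT rim mean also rests on the fewest libraries, so the counts do not show how unusual the members are. Of the pairs of groups tested with all libraries by edgeR, WT rim and WT core differed by called members and the others did not, while DESeq2 also called 5 members between the genotypes in rim.

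Levels can be compared between genes only per length. Divided by exon length (GENCODE M21, GRCm38), the WT core mean was highest for Mcm6 at 109.6 CPM per kb, followed by Mcm4 at 81.8, Rrm2 at 78.9, Pcna at 69.8 and Mcm3 at 69.5. The lowest were Chaf1a at 0.406, Ccne1 at 2.11 and Ccne2 at 2.98 CPM per kb. The ring subunit Mcm2 stood at 31.2 CPM per kb in WT core, 12.5 in WT rim and 24.0 in KO rim. Chek1, among the lowest of the 41 per length, stood at 3.57, 0.13 and 2.14 CPM per kb in the same groups.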

How the data were processed

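The deposited table holds unnormalized read counts for each gene symbol in 17 libraries, as the authors made it. Per the submitters' processing notes, the tools were featureCounts, Subread 2.0.0, HISAT2, Bowtie2 2.4.5 and cutadapt 3.2, with GRCm38 and mm10 as builds. Settings and strandedness are not given in those sources, so reads of genes that overlap on opposite strands may be mixed.

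The count test was that of edgeR 4.0.16 (R 4.3.3). Low genes were dropped by filterByExpr over the 4 groups of genotype and site, libraries were scaled by TMM, and a robust quasi-likelihood model was fitted to all 17 libraries, so WT rim shared the spread of the larger groups. P-values of two-sided F tests were adjusted (Benjamini-Hochberg) across the 20137 genes tested. SE is the size of the log2 fold change divided by the square root of F, and mean log2 CPM used a prior count of 2. Alternatives were DESeq2 1.42.0 (test and size factors), limma 3.58.1 (voom with the identifier as block), no filter, only the groups compared, female libraries, covariates for other cell types, and leaving out each library. The test was also run on simulated independent counts with changes planted in WT rim. Such counts do not copy shared identifiers or mixtures of cells, and no result here rests on them.

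The members and the lists were chosen with earlier results of these data known. Genes with values in every library were Mcm2, Pcna, Tyms, Rrm2, Ccne1, Ccne2, E2f1, the 5 called members with the largest change or, where none was called, the 3 with the smallest p per comparison.

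1 gene of the further lists that the naming rule would give is not reported here.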

Additional observations from a re-analysis of the deposited data

Results flagged for a closer look

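Of 60 sets of library values in groups of 4 or more, from 18 members and the mean levels over the members and over the mitosis genes, 4 held a library far from the others, where chance gives about 1 in 20. Chek1 measured 27.5 CPM in KO core F86 and 9.73 to 16.2 CPM in the other 5 KO core libraries. Gins2 measured 23.0 CPM in the same library and 9.50 to 13.6 CPM in the others. Mcm2 measured 148 CPM in WT core H876 and 217 to 243 CPM in the other 4 WT core libraries. Pcna measured 194 CPM in KO rim F86 and 148 to 156 CPM in the other 3 KO rim libraries.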

How the results depend on the processing

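Between WT core and WT rim, 21 members and 777 of all 20137 genes were called. The member count was 10 with only the groups compared (91 of 17334 genes) and 9 among female libraries (313 of 18820 genes). It was 3 with the macrophage covariate (52 of 20137 genes) and 11 with limma voom and the identifier as replicate block (556 of 20137 genes). Leaving out 1 library gave at most 23 (without KO core F319). Without H874 or H877 only 1 WT rim library is left, so calls from those fits are not given. DESeq2 called 26. For KO against WT in rim, the count of 0 became 5 by DESeq2 (269 of 20137 genes). It was 1 without WT core H719 (13 of 19943 genes) or H876 (9 of 19887 genes). Without KO rim F322 it was 2 (26 of 19922 genes), the highest over the libraries left out. For the interaction, 0 became 4 by DESeq2 (160 of 20137 genes). Without KO rim F322 it was 1 (14 of 19922 genes), the highest over the libraries left out. KO against WT in core and core against rim in KO stayed at 0 under every alternative run. Member medians kept their sign under all alternatives run, from 1.08 to 1.22 for the WT sites, from 0.53 to 0.75 for KO against WT in rim, from -0.20 (without WT core H876) to -0.043 (without KO core F319) in core, from 0.23 (female libraries) to 0.60 for the KO sites and from 0.61 to 0.90 for the interaction.

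Signs turned for Ccne1 between the WT sites (-0.11 with the macrophage covariate). Over the libraries left out, signs turned for Ccne2 between the WT sites (-0.37 to 0.87) and, in rim, for Pcna (-0.051 to 0.088), Ccne2 (-0.29 to 0.95) and E2f1 (-0.53 to 1.85). The cause was not tested. Fewer libraries in a fit also leave fewer residual degrees of freedom.

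The correlation of deviations between KO core and KO rim libraries of the same identifier was 0.072 for F322, 0.045 for F86 and 0.082 for O. Between different identifiers it ran from -0.20 to 0.24, so these values cannot settle whether the identifiers mark pairs. The labels do not say that they mark animals, and the main fit did not treat them as pairs. On the 6 libraries of F322, F86 and O, edgeR with the identifier as replicate block called 0 members, with a median of 0.60 (core over rim).

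Low counts limit Chek1 in WT rim (7 and 19 counts) and Chaf1a (1 count in KO rim F322), and 2 WT rim libraries limit every comparison that uses them.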
